A study of Mus musculus with 8 samples.

Results

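B cells were rare among the CD45+ cells of both the normal mouse brain and glioma: 132 of 24536 retained cell barcodes met the rule used here, 96 of 13497 (0.711%) in the control library and 36 of 11039 (0.326%) in the glioma library. CD45 is a surface protein of all white blood cells. A barcode, which stands for 1 cell, was retained with at least 1000 unique molecular identifiers (UMIs, each an RNA molecule counted once), at least 400 detected genes and at most 10% of UMIs from mitochondrial genes. The members were thus chosen by measured counts: a B cell had at least 4 UMIs summed over Cd79a, Cd79b, Ms4a1 and Ly6d, at least 1 of them Cd79a, and no UMI of the T cell genes Cd3d, Cd3e and Cd3g. The 4 labelled control samples were CD45+ cells taken from normal mouse brain by magnetic sorting, and the 4 labelled glioma samples were CD45+ cells from the tumours of glioma-bearing mice. Genotype, strain, age, tumour model and any treatment are not given in the sources used here, nor whether each sample is 1 animal. Each group was deposited as 1 matrix in which the barcodes carry no sample name. The comparison of control with glioma therefore rested on 1 pooled library each, with no replicate, and no p-value could be given. The 95% intervals on counts and shares below cover counting error only.

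B cells are the lymphocytes that make antibody. They arise in bone marrow, where a pre-B cell first makes the heavy chain with the surrogate light chain of Vpreb1 and Igll1, then a kappa or lambda light chain, and finally displays IgM and IgD on its surface. CD79A and CD79B carry the signal of that receptor, and EBF1 and PAX5 are the transcription factors that set B cell identity. Mature B cells circulate through blood and lymphoid organs, present peptides on MHC class II, respond to interferons, and can become plasma cells that secrete antibody. In the brain, B cells are few and lie mostly in the meninges and vessels, and skull bone marrow is a source of developing B cells for the meninges.

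The rule genes are a description of how the cells were chosen. Cd79a had 1, 10 and 61 UMIs per cell (lowest, median, highest) in the control cells and 1, 5 and 14 in the glioma cells. The summed rule genes had 4, 19.5 and 98 UMIs in control and 4, 9.5 and 23 in glioma. Just inside the limit, at exactly 4 rule UMIs, lay 3 control and 3 glioma cells. Just outside, at 3 rule UMIs with Cd79a present, lay 7 control and 4 glioma barcodes. A further 32 control and 7 glioma barcodes were left out for Cd3 UMIs alone, with a median of 9.5 and 5 Cd3 UMIs. Of these, 31 and 7 carried Ebf1, and the control ones were deep, with a median of 15149.5 UMIs. Ly6d RNA was also present outside cells, at 510 and 569 counts per 1000000 UMIs (CPM) in barcodes of at most 100 UMIs. Leaving Ly6d out of the rule kept 96 and 36 cells.

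The label B cell held against markers that the rule did not use. Ebf1 was detected in 94 of 96 control cells and 35 of 36 glioma cells, at 648 and 479 CPM of the summed cells against 12.4 and 0.497 CPM in the other retained barcodes. Pax5 was detected in 58 and 18 cells, at 112 and 77.2 CPM against 0.498 and 0.0476 CPM in the other barcodes. Ighm, the heavy chain of IgM, was detected in 93 and 35 cells, but also in 71.7% and 12.2% of the other barcodes, so its detection alone does not mark the cells. No barcode of a B cell was shared with a barcode of at least 300 UMIs in the other library, whereas 49 control and 97 glioma retained barcodes were. No doublet caller was run.

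Many of the control B cells also carried the RNA of microglia and macrophages, the most abundant cells of that library. Over 25 microglia and monocyte or macrophage markers, 61 of 96 control cells took more than 1% of their UMIs from those genes, with a range of 1.05% to 8.56% and a median of 3.45%. C1qa, a complement gene of microglia and macrophages, was detected in 61 of these 61 cells, at 4731 CPM, and their median depth was 13305 UMIs. The other 35 control cells had a median depth of 3951 UMIs, 513 CPM of C1qa and 2556 CPM of Cd79a, against 689 CPM of Cd79a in the 61 cells. Among the glioma cells only 7 of 36 lay above 1%, with a median of 13462 UMIs. The remaining 29 had 3347 UMIs and 79.9 CPM of C1qa. Whether the 61 and 7 barcodes hold a B cell together with another cell was not tested. The microglia markers summed to 9596 CPM in the control cells against 23624 CPM in the other control barcodes, and to 122 CPM with 5 of 10 at 0 in the glioma cells.

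**Figure D1:**
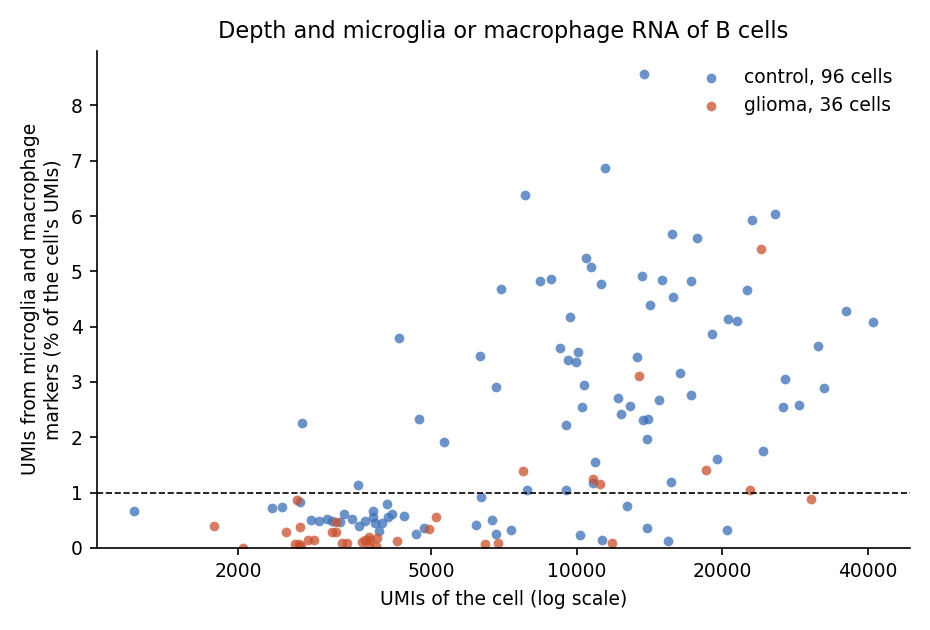
UMIs per cell (log axis) against the percentage of UMIs from 25 microglia and macrophage markers for the 96 control and 36 glioma B cells, 1 point per cell, with the 1% limit as a dashed line. Of the control cells 61 lie above the line, mostly at high depth, and of the glioma cells 7.

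The main results are therefore given for every cell and again for 1 or both of 2 smaller sets. The limited set holds the 35 control and 29 glioma cells at or below 1%. The narrow set, chosen after the data were seen, holds the 26 control and 27 glioma cells of the limited set with fewer than 10 Jchain UMIs, no pre-B UMI and at most 10000 UMIs. In the narrow set the depths were close, at 1217, 3810 and 7308 UMIs per control cell and 1782, 3266 and 6889 per glioma cell. Over every cell they were 1217, 10113.5 and 40955 in control and 1782, 3722 and 30551 in glioma. Markers of other cell types were also found in many control cells. Plasmacytoid dendritic cell markers were detected in 79 of 96 control and 9 of 36 glioma cells, oligodendrocyte markers in 74 and 14, choroid or ependymal markers in 75 and 0, and dendritic cell markers in 50 and 10. The plasmacytoid list shares Siglech with the microglia list, so its detection does not tell the 2 cell types apart. That list summed to 690 CPM in every control cell together, 154 CPM in the limited set and 1443 CPM in the other control barcodes. Neutrophil markers were in 53 and 11 cells, at 7579 and 69.1 CPM. Erythroid markers were in 86 and 0 cells, at 5966 CPM in control, of which 96.8% came from 1 cell. The part of this RNA in the results was not tested. T cell markers summed to 18.1 and 32.5 CPM, with the 3 Cd3 genes at 0 by the rule.

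The share of B cells among retained barcodes was 0.711% (95% Clopper-Pearson interval 0.576% to 0.868%) in the control library and 0.326% (0.229% to 0.451%) in the glioma library. In the limited set the shares were 0.259% (0.181% to 0.360%) and 0.263% (0.176% to 0.377%). The intervals were apart over every cell and overlapped almost wholly once cells with over 1% microglia or macrophage RNA were left out. The CD45 sort sets both shares, and fewer B cells cannot be told apart from more of the other sorted cells.

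The normal brain held B cells of several stages. Many carried transcripts of mature cells: Ighd, the heavy chain of IgD, was detected in 60 of 96 cells, and Fcer2a, the low-affinity IgE receptor of follicular B cells, in 49. Ighm had 0, 13 and 51 UMIs per cell and does not separate the stages. Its highest value was in a cell with Rag1 and Rag2 UMIs, 28 Vpreb3 UMIs and 0 Ighd. Another group carried transcripts of B cell development. In 9 of 96 cells (9.38%, interval 4.38% to 17.1%) there was at least 1 UMI of Rag1, Rag2, Dntt, Vpreb1 or Igll1, genes of receptor gene recombination and the pre-B receptor. All other 13401 retained control barcodes together held 37 such UMIs. Vpreb1 and Igll1 were found in the same 3 cells. The first, of 3647 UMIs, had 5 Vpreb1, 4 Igll1 and 5 Dntt UMIs with 0 of Cd74, the invariant chain of MHC class II, and 1 of Igkc, the kappa constant region. The second, of 3902 UMIs, had 14, 11 and 8 with 0 Cd74 and 0 Igkc. The third, of 19482 UMIs, had 36, 22 and 7 with 6 Cd74 and 1 Igkc. The other 6 cells had only Rag1 or Rag2. Of the 9 cells, 3 were among the 35 cells of the limited set. All 9 had 0 Fcer2a, 8 had 0 Ighd, and their Vpreb3 ranged from 7 to 28 UMIs.

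Vpreb3, a chaperone of light chain assembly made from the pre-B to the transitional stage, divided the control cells further. It reached 6 or more UMIs in 18 control cells and in none of the 36 glioma cells, whose highest value was 3. Of the 18 cells, 15 had 0 Ighd, 15 had Sox4, a transcription factor of lymphoid progenitors, and 1 had Fcer2a. Of the other 78 control cells, 57 had Ighd, 39 had Sox4 and 48 had Fcer2a. Sox4 RNA was also present in the other control barcodes, so its detection alone does not mark a stage. Its highest value, 38 UMIs, was in a cell of 28850 UMIs with 0 Vpreb3, 3 Ighd and 2.59% microglia or macrophage UMIs. Within the limited set 10 of 35 control and 0 of 29 glioma cells reached 6 UMIs of Vpreb3, and in the narrow set 6 of 26 and 0 of 27. The limit of 6 UMIs was set after the values were seen, and these counts are a description. It is a raw count, and the control cells were deeper. With cells thinned to 1000 UMIs, Vpreb3 was detected in 21.9% of control (14.1% to 31.5%) and 8.33% of glioma cells (1.75% to 22.5%). In the narrow set the shares were 26.9% (11.6% to 47.8%) and 14.8% (4.19% to 33.7%). The intervals overlapped in both sets.

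No pre-B UMI was found in the glioma B cells, 0 of 36, which allows a share of up to 8.33% of cells with such a UMI. Vpreb1 had 55 UMIs in control against 0, and Igll1 37 against 0. All of these came from 3 of 96 control cells (3.13%), with 65.5% of the Vpreb1 UMIs from 1 cell. That share lies below the 9.74% limit, so no fold bound is given for these 2 genes. The other retained glioma barcodes together held 115 pre-B UMIs. Sox4 had 0, 1 and 38 UMIs per control cell, in 54 cells, and 0, 0 and 1 per glioma cell, in 2 cells. Its summed counts were 261 and 2, a log2 ratio of glioma over control of -4.54 (-7.91 to -2.99). The limited set had 58 and 1 UMIs of Sox4, and the narrow set 10 and 0, at least 2.99-fold lower. Sox4 was also lower in the other glioma barcodes, at 12.7 against 262 CPM. Cd24a, a surface protein highest on immature B cells, was found in 60 and 10 cells at log2 -0.94, and in 14 of 26 and 7 of 27 cells of the narrow set at -2.35. Of the 20 genes listed for early B cell development, 12 reached the minimum of 20 UMIs over both sums, of which 1 was at least 2-fold higher and 8 at least 2-fold lower in glioma (median log2 -2.18). Vpreb1, Igll1 and Dntt (20 and 0 UMIs) are among the lower genes. These genes reached the minimum through the same 3 control cells alone, so they could only count as lower. Over all 6556 genes tested in this way, 7% were at least 2-fold higher and 19.5% at least 2-fold lower, with a median of -0.13. The list median was -1.71 over 4 genes in the limited set. With cells thinned to 1000 UMIs, a list UMI was found in 40.6% of control and 41.7% of glioma cells. The shares were 48.6% and 44.8% in the limited set and 46.2% and 48.1% in the narrow set. The highest count in a thinned cell was 18 in control and 2 in glioma. Scaled to cell depth, the median list count per cell was near equal over every cell and lower in glioma in the smaller sets. The lower ratios thus went without a lower share of cells with list RNA over every cell. The chosen B cells were deeper in control than in glioma (median 10113.5 and 3722 UMIs), although the retained barcodes as a whole were shallower (6849 and 11347), and the part of depth was not tested.

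**Figure D2:**
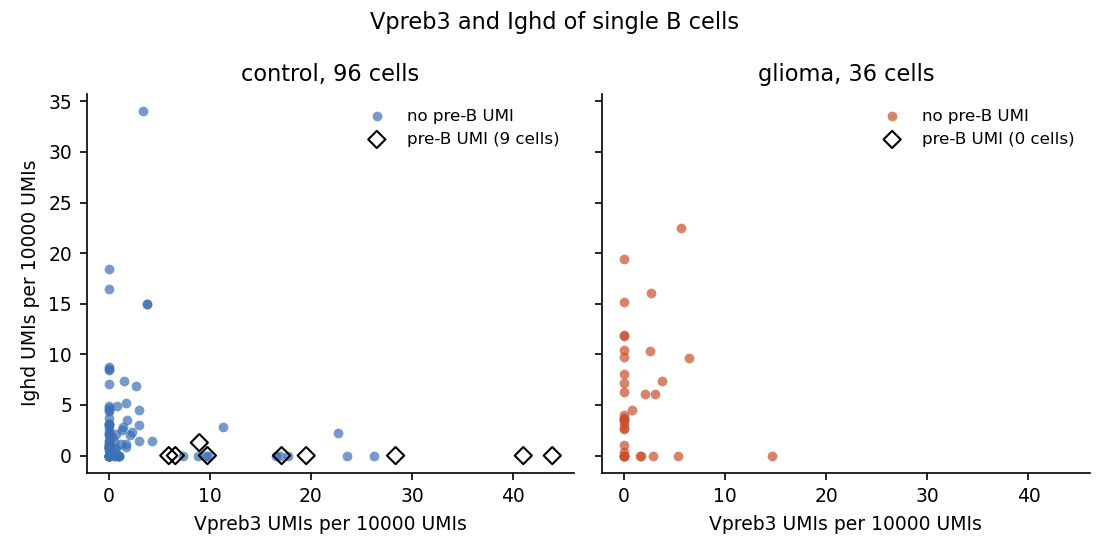
Vpreb3 against Ighd, both as UMIs per 10000 UMIs of the cell, for each control and glioma B cell, with diamonds for cells with any UMI of Rag1, Rag2, Dntt, Vpreb1 or Igll1. The 9 diamonds are all control cells, and 8 of them have 0 Ighd.

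Antibody-secreting cells were represented by 1 cell in each library. The control cell, of 11305 UMIs, had 3843 Igkc UMIs (34% of its RNA) and 1782 of Igha, the IgA heavy chain (15.8%). It also had 359 UMIs of Jchain, which joins secreted IgA and IgM, 16 of Mzb1, a chaperone of antibody secretion, 12 of Tnfrsf17, the plasma cell survival receptor BCMA, and 0 of Ighm. The glioma cell, of 11837 UMIs, had 3234 Igkc UMIs (27.3%), 980 of Ighg2c, an IgG2c heavy chain (8.28%), 101 of Jchain and 87 of Mzb1, with 0 of Ighm. These 2 cells set the summed light chain values, since they held 53.9% of control Igkc and 87.6% of glioma Igkc. The log2 ratio of Igkc was 1.22 over every cell and -1.07 (-1.26 to -0.90) in the narrow set, which leaves both out. Class-switched transcripts were otherwise few. With the secreting cells included, Ighg2b was detected in 1 control cell, at 20 UMIs beside 387 of Igkc and 0 of Ighm, Ighg2c in 2 control cells and 1 glioma cell, Igha in 7 and 1, and Ighg3 in none.

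Most B cells of both libraries carried IgM. Ighm was at 1236 and 902 CPM (log2 -0.45, interval -0.67 to -0.25), -0.60 in the narrow set. With each cell thinned to 1000 UMIs, Ighm was detected in 67.7% of control and 75% of glioma B cells (96.9% and 97.2% before thinning). In the other barcodes it was detected in 22.8% and 1.99% after thinning and in 71.7% and 12.2% before it, at median depths of 6839 and 11366 UMIs. IgD transcripts were relatively more abundant in the tumour. Ighd had 0, 1 and 12 UMIs per control cell and 0, 2 and 8 per glioma cell. It was detected in 60 of 96 and 27 of 36 cells, and after thinning in 16.7% and 50% against 0.754% and 0.0364% of the other barcodes. The log2 ratio was 1.03 (0.64 to 1.39) over every cell, 0.86 in the limited set and 0.62 (0.06 to 1.20) in the narrow set. The per-cell values of the libraries overlapped.

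Kappa light chains predominated in both libraries, and the kappa share was higher in glioma with overlapping intervals. Igkc had 0, 24.5 and 3843 UMIs per control cell and 0, 12.5 and 3234 per glioma cell. Cells with at least 5 light chain UMIs were called kappa or lambda where at least 75% of those UMIs came from Igkc or from Iglc1 to Iglc3. Of 91 such control cells 59 were kappa (64.8%, 54.1% to 74.6%), 5 lambda (5.49%) and 27 mixed. Of 33 such glioma cells 28 were kappa (84.8%, 68.1% to 94.9%), 0 lambda, with an interval up to 10.6%, and 5 mixed. The narrow set gave 14 kappa, 2 lambda and 9 mixed of 25 control cells, and 20, 0 and 4 of 24 glioma cells. Iglc1, a lambda constant region, was found in 38 of 96 control and 4 of 36 glioma cells, at 271 and 77.2 CPM (log2 -1.78). Its ratio in the narrow set was -4.59 (-6.36 to -3.46), from 147 and 5 UMIs, with 39.5% of the control counts from 1 cell. The control cells with 0 Igkc and high lambda had 58 Iglc1 and 12 Iglc2 UMIs, 32 and 15, and 11 and 48.

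**Figure D3:**
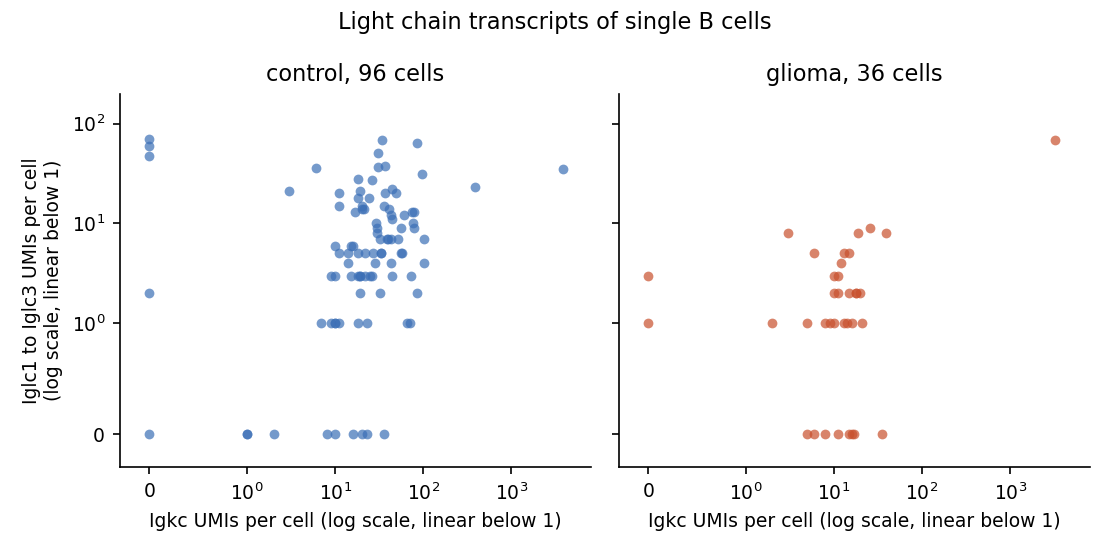
Igkc against summed Iglc1, Iglc2 and Iglc3 UMIs per cell (log axes, linear below 1) for control and glioma B cells. The 2 cells with 3843 and 3234 Igkc UMIs are the antibody-secreting cells, and 3 control cells at 0 Igkc have the highest lambda counts of cells without kappa.

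Variable segments were too thinly counted to follow clones. With at least 2 UMIs of a leading segment, 3 control cells carried an Igkv, each a different one, and 1 an Ighv. In glioma 1 cell carried an Igkv, an Ighv and an Iglv, and this was the antibody-secreting cell, with 23 UMIs of Igkv10-96 and 18 of Ighv8-12.

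Genes of the interferon gamma response were higher in the glioma B cells than in the control B cells. Interferon gamma, a cytokine of activated T and NK cells, acts through GAS elements of its target promoters and raises IRF1, guanylate-binding proteins (Gbp) and immunity-related GTPases (Irgm1, Igtp). Of 17 genes of this list that reached the minimum, 16 were at least 2-fold higher and 1 at least 2-fold lower, against 7% and 19.5% of all genes, with a median of 2.94. In the limited set 7 of 10 were at least 2-fold higher and 0 lower, against 6.61% and 15% of 2269 genes, with a median of 1.89. In the narrow set 6 of 6 were higher, against 6.53% of 1255 genes (19% were lower), with a median of 2.90. The minimum left out 11 of the 21 list members in the limited set and 15 in the narrow set. A gene near 0 in control, such as Gbp7 with 1 and 25 UMIs in the narrow set, reached the minimum only through glioma. The counts and medians of the smaller sets therefore depend in part on the minimum. The letters of 4 of these promoters are shown because their genes were higher together in all 3 sets. Each runs 5′ to 3′ from 250 bases before to 50 bases after the RefSeq gene start, with matches to the GAS letters TTCNNNGAA or the interferon-stimulated response element letters GAAANNGAAA, on either strand, in capitals.
Irf1 (GRCm38.p6, chr11:53769764-53770063, plus strand): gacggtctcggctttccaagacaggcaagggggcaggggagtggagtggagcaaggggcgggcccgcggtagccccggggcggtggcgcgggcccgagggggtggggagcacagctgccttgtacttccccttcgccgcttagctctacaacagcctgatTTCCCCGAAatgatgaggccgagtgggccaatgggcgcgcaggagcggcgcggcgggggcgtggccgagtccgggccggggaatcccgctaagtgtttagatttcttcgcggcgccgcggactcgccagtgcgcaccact
Gbp7 (GRCm38.p6, chr3:142530086-142530385, plus strand): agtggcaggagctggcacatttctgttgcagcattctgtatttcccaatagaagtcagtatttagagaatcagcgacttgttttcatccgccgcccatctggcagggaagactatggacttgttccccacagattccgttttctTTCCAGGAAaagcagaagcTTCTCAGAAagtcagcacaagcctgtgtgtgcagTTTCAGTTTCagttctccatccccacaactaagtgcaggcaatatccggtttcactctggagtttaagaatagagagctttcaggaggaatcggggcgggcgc
Irgm1 (GRCm38.p6, chr11:48871371-48871670, minus strand): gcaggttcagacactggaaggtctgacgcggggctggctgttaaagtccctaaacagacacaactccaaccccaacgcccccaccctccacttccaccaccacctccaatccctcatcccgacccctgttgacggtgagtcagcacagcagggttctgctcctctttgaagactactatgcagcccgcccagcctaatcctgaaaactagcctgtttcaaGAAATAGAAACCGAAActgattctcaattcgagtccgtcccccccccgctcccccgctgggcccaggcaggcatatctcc
Serpina3g (GRCm38.p6, chr12:104235897-104236196, plus strand): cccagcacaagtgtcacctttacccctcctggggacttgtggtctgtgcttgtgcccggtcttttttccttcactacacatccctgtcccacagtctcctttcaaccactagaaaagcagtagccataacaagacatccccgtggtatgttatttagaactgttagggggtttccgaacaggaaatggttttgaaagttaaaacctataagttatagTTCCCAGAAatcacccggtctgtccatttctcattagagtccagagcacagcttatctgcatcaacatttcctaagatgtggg
Irf1 and Serpina3g held 1 GAS match each, Gbp7 held 2 GAS matches and 1 response element match on the reverse strand, and Irgm1 held 2 response element matches that share letters. GAS letters were in 8.3% of 32851 RefSeq promoters of this length and in those of 8 of 16 matched genes of the list. Response element letters were in 3.44% of promoters and in those of 11 of 16. Among 20 matched B cell identity genes each motif was found for 2. A match is a description of the letters in the window, not a binding site.

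Irf1, a transcription factor of the pathway, was found in 37 of 96 and 22 of 36 cells, at 81.3 and 219 CPM (log2 1.44, 1.89 and 2.69 in the 3 sets).

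The GTPases of the list followed the same direction. Gbp7, a guanylate-binding protein, was found in 22 of 96 control and 22 of 36 glioma cells, at log2 2.81 (2.18 to 3.48), and in 1 of 26 and 16 of 27 cells of the narrow set. After thinning its shares were 2.08% and 27.8% of B cells against 5.07% and 14.8% of the other barcodes. Irgm1, an immunity-related GTPase, rested on 9 and 30 UMIs (log2 3.85, 2.79 to 5.17), from 9 and 16 cells. Igtp rested on 8 and 24 UMIs (3.7), and Ifi47 on 11 and 28 (3.48). In the narrow set Igtp had 0 and 13 UMIs, at least 4.83-fold higher, and Ifi47 0 and 14, at least 5.21-fold higher. Serpina3g, a protease inhibitor of activated lymphocytes, had 8 and 70 UMIs in 5 and 19 cells (log2 5.22, 4.24 to 6.57). Its ratios were 3.11 in the limited and 3.67 in the narrow set.

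Some members of the list were lost in the smaller sets. Cxcl9, a chemokine that draws T cells and is made in quantity by tumour macrophages, had 1 and 220 UMIs, from 12 of 36 glioma cells with 40% from 1 cell, at 894 CPM against 948 CPM in the other glioma barcodes. In the limited set it had 0 and 20 UMIs. Gbp2 was at log2 4.49 over every cell and 0.54 (-1.57 to 2.66) in the limited set. Iigp1 had 0 and 47 UMIs, of which 74.5% came from 1 cell. Ly6a, a surface protein induced by interferon, was at 2.19 over every cell, -0.45 in the limited set and 1.27 in the narrow set. Cxcl10 was the member at least 2-fold lower (149 and 40.6 CPM, log2 -1.81), with 3 and 1 UMIs left in the limited set. Of the 16 higher genes, 12 were at least as high in the glioma B cells as in the other glioma barcodes.

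Cell by cell, the summed list gave 0, 4.60 and 49.8 UMIs per 10000 UMIs in control and 0, 28.3 and 82.5 in glioma. In the narrow set the values were 0, 4.47 and 27.1 against 0, 28.3 and 74.8. The medians lay far apart and the ranges overlapped. After thinning, 33 of 96 control cells (34.4%) and 30 of 36 glioma cells (83.3%) had at least 1 UMI of the list, and in the narrow set 6 of 26 (23.1%) and 21 of 27 (77.8%). The list sum was 650 and 4029 CPM in the B cells, 1041 and 2456 CPM in the limited set, 546 and 3046 CPM in the narrow set, and 601 and 3593 CPM in the other barcodes of the 2 libraries. The limited set thus lay above the other barcodes in control and below them in glioma. In the control limited set 1 cell, of 20475 UMIs, held 102 UMIs of the list, against a median of 2 per cell. The narrow set leaves this cell out and lay below the other barcodes in both libraries. The part of free RNA in single cells was not tested. With the free RNA profile subtracted from the sums, the list median was 7.53.

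**Figure D4:**
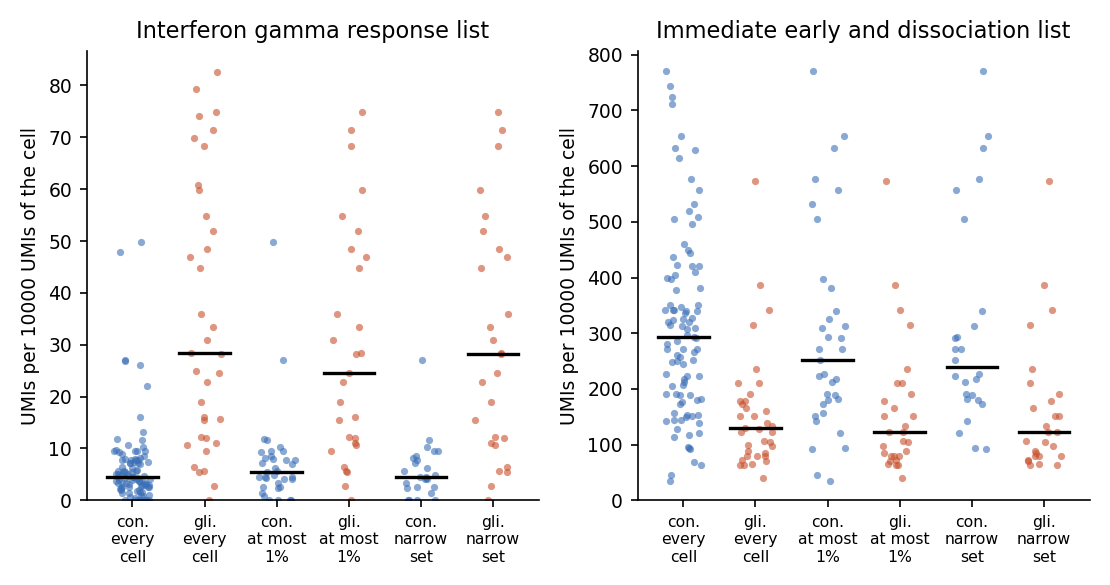
UMIs per 10000 UMIs of each B cell for the interferon gamma response list and the immediate early and dissociation list, in control (con.) and glioma (gli.), for every cell, the set at or below 1% microglia and macrophage UMIs and the narrow set, with lines at the medians. Glioma medians are above control in the left panel (28.3 against 4.60 over every cell) and below it in the right (129 against 293).

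Type I interferon genes had a lower median than the interferon gamma list. Of 21 genes tested 7 were at least 2-fold higher (33.3%, against 7% of all genes) and 0 lower (against 19.5%), at a median of 0.89. Of 7 genes tested in the limited set 3 were higher and 1 lower, with a median of 0.10, against 6.61% and 15% of all genes. Of 5 in the narrow set 2 were higher and 0 lower, with a median of 0.49, against 6.53% and 19%. Isg15, a ubiquitin-like effector, was at log2 1.65 with 48.7% of glioma counts from 1 cell, and at -0.11 (-2.88 to 2.17) in the limited set, from 5 and 3 UMIs. Ifi203, an interferon-inducible gene, was at 0.89, 1.08 and 1.52 in the 3 sets, and Irf7, the amplifying factor of the pathway, at 0.96, 2.13 and 2.23.

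Among the class I and peptide loading genes named here, only Psmb9 was at least 2-fold higher in all 3 sets. Psmb9, an immunoproteasome subunit, was found in 44 of 96 and 25 of 36 cells, at 73.2 and 329 CPM (log2 2.17, 1.71 to 2.63), with 2.50 in the limited and 1.63 in the narrow set. After thinning it was detected in 6.25% and 19.4% of B cells, against 5.49% and 21.9% of the other barcodes. Tap1, the peptide transporter, was at 2.06, 1.07 and 0.63 in the 3 sets, and Psmb8, another subunit, at 1.13, 0.39 and -0.35. B2m, the shared light chain of class I, was at 0.50 and 0.21 (every cell and narrow set), H2-K1 at 0.79 and 0.57, and H2-D1 at 0.15 and -0.30. Of 23 class I and peptide loading genes 11 were at least 2-fold higher (47.8%, against 7% of all genes) and 0 lower, and in the limited set 2 of 20 were higher, with medians of 0.89, 0.28 and 0.066 in the 3 sets.

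MHC class II was carried by nearly all B cells of both libraries, and its difference turned with the cells kept. Cd74 had 0, 58 and 653 UMIs per control cell and 13, 34.5 and 424 per glioma cell. Its level was 8684 and 11633 CPM (log2 0.42), with -0.10 in the limited and -0.64 (-0.77 to -0.52) in the narrow set. H2-Ab1, a class II beta chain, was at 1.01, 0.62 and -0.27, and H2-Aa, its alpha chain, at 0.64, 0.42 and -0.25. The other barcodes had 761 and 10190 CPM of Cd74 and 240 and 5428 CPM of H2-Ab1, so class II set B cells apart from the other cells in control but not in glioma. H2-DMb2, a chain of the peptide editor, was lower in each set, at -0.61, -1.58 and -1.57. H2-Ob, a chain of the inhibitor of that editor in B cells, was at 0.07, -0.02 and 0.16. The list medians were 0.64 (2 of 11 higher, 0 lower), 0.41 (1 of 10 higher, 1 lower) and -0.25 (0 of 9 higher, 1 lower).

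B cell identity genes lay near the background over every cell and below it in the smaller sets. Over 27 tested genes, 3 were at least 2-fold higher (11.1%, against 7% of all genes) and 5 lower (18.5%, against 19.5%), with a median of -0.45. In the limited set 0 were higher and 12 lower (44.4%, against 15% of all genes; median -0.89). In the narrow set 1 of 25 was higher and 10 lower (40%, against 19%; median -0.88). The rule genes are among them: Cd79a was at -0.34 over every cell and -0.97 in the narrow set, from 3248 and 1660 CPM, values the rule itself used. A minimum of 4 UMIs is a higher CPM in a shallower cell. Ebf1 was at -0.43 and -0.62 and Pax5 at -0.51 and -0.31 (-1.39 to 0.70), the last on few counts.

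Lower genes included several of resting and circulating B cells. Klf2, the transcription factor that keeps lymphocytes quiescent and in circulation, had 0, 10 and 126 UMIs per control cell, in 91 cells, and 0, 1 and 9 per glioma cell, in 22 cells. Its level was 1346 and 321 CPM (log2 -2.06, -2.41 to -1.74), with -2.07 and -1.83 in the limited and narrow sets. It was also lower in the other glioma barcodes, at 152 against 813 CPM. When the B cell rule was applied to cells thinned to 1000 UMIs, which leaves 33 control and 17 glioma cells, the ratio was 0.13. Fcer2a was found in 49 of 96 and 4 of 36 cells (log2 -2.61, -4.67 to -1.38), and in 10 of 26 and 4 of 27 cells of the narrow set (-2.29). Cd37, a tetraspanin of mature B cells, was found in 95 and 19 cells at 557 and 154 CPM, with ratios of -1.83, -1.93 and -1.86. The other barcodes also differed for Cd37, at 416 and 22.9 CPM. Fcmr, the receptor for secreted IgM, was at -0.98, -1.84 and -1.93, with under 1 CPM in the other barcodes of each library. Vpreb3 was at -1.64, -2.06 and -1.81. Cd81, a tetraspanin of the B cell coreceptor complex, was at -2.94, -3.02 and -3.96, and the other barcodes had 2474 and 211 CPM.

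Other mature B cell genes were higher. Pou2af1, a B cell coactivator, was at 1.02, 0.89 and 1.28, and Fcrl1, an Fc receptor-like protein of B cells, at 1.37, 1.58 and 1.5. Irf8, a transcription factor of B cells and myeloid cells, was at 0.39, 0.77 and 1.61. Ccr7, a homing receptor of lymph nodes, went the other way at -0.48, -0.77 and -1.06, and Cxcr4, a chemokine receptor of bone marrow homing, was at 0.70, 0.83 and 0.81. The list of mature follicular genes had a median of 0.14 over every cell. There 4 of 16 were higher and 2 lower (25% and 12.5%, against 7% and 19.5% of all genes). In the narrow set the median was -0.28, with 1 of 12 higher and 4 lower (8.33% and 33.3%, against 6.53% and 19%).

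**Figure D5:**
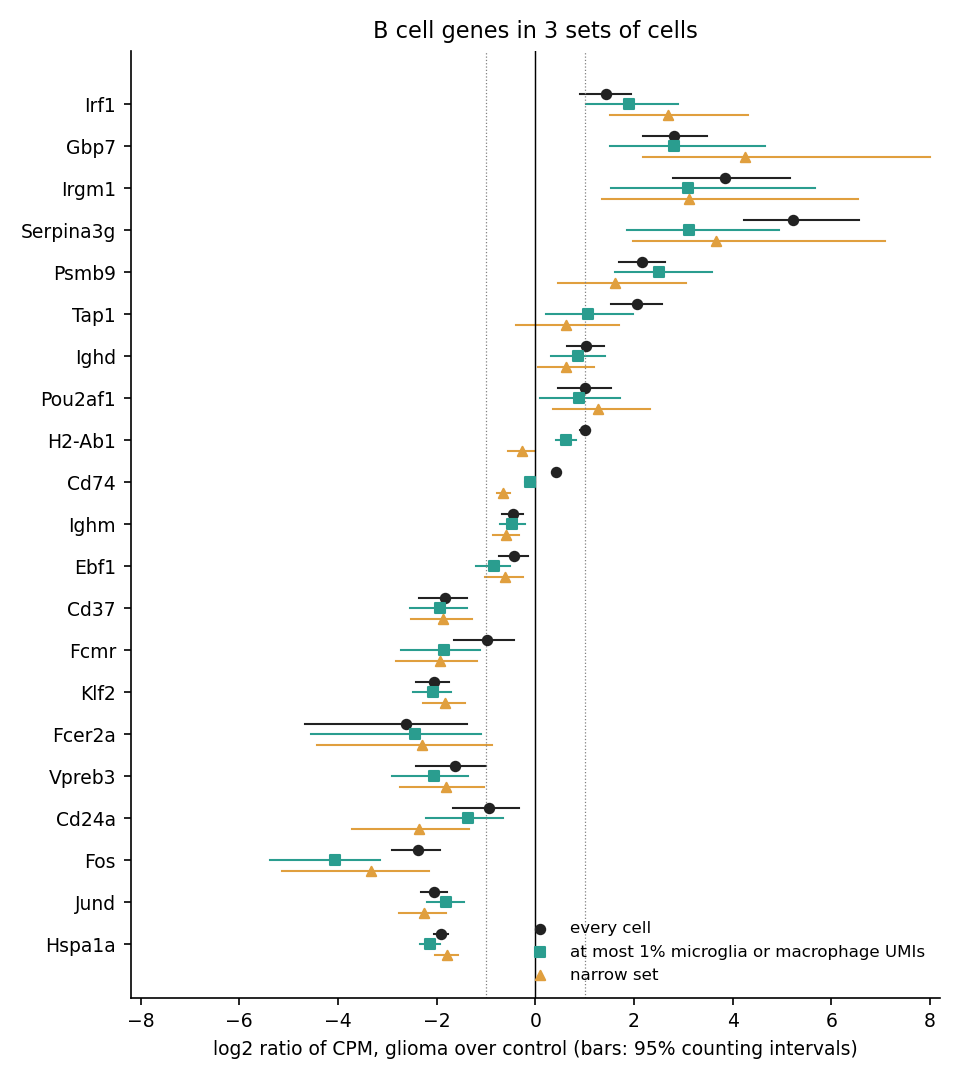
log2 ratios of CPM, glioma over control, for 21 genes in every cell, the set at or below 1% microglia and macrophage UMIs and the narrow set, with bars for 95% counting intervals and dotted lines at 2-fold; the axis ends at 8, beyond which the Gbp7 interval of the narrow set runs. Irf1, Gbp7, Irgm1, Serpina3g and Psmb9 lie above 1 in all 3 sets, and Cd37, Klf2, Fcer2a, Vpreb3, Fos, Jund and Hspa1a below -1.

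Genes of receptor signalling were mostly near equal over every cell. Of 19 tested, 0 were at least 2-fold higher (against 7% of all genes) and 2 lower (10.5%, against 19.5%; median -0.20). In the limited set 0 of 14 were higher and 4 lower (28.6%, against 15%; median -0.74). In the narrow set 0 of 11 were higher and 2 lower (18.2%, against 19%; median -0.50). Syk, the kinase next to the receptor, was at 0.35 and 0.61 in every cell and the narrow set, Lyn, a kinase upstream of it, at 0.13 and 0.46, and Prkcb, a kinase further down, at -1.42 and -1.76. Inhibitory coreceptors had 4 of 12 higher and 2 lower over every cell (33.3% and 16.7%, against 7% and 19.5% of all genes). Of the 4 higher genes, 2 were at least as high as in the other glioma barcodes. In the limited set 1 of 9 was higher and 4 lower (11.1% and 44.4%, against 6.61% and 15%). In the narrow set 1 of 8 was higher and 2 lower (12.5% and 25%, against 6.53% and 19%). Cd22, an inhibitory lectin, was at 0.44 (-0.53 to 1.26) and 0.41 (-0.92 to 1.79), and Cd72, another, at -0.09 and -2.29 (-3.66 to -1.27). Fcgr2b, the inhibitory IgG receptor, was at 1.12 over every cell and -0.61 (-2.11 to 0.70) in the narrow set, and its level in the other barcodes was 156 and 406 CPM.

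Immediate early genes, which rise within minutes of stimulation or tissue dissociation, were lower in the glioma B cells. Of 22 genes tested, 0 were at least 2-fold higher and 15 lower (68.2%, against 19.5% of all genes; median -1.37). In the limited set 1 was higher and 12 lower of 22 (54.5%, against 15%; median -1.03), and in the narrow set 1 and 13 of 21 (61.9%, against 19%; median -1.34). Fos was at 836 and 158 CPM (log2 -2.38, -4.06 and -3.33 in the 3 sets) and Jund at -2.04, -1.81 and -2.26. Atf3, a stress-induced factor, had 878 and 3 UMIs (-5.80, -8.30 to -4.47), and 46 and 1 in the limited set. Hspa1a, a heat shock chaperone, had 0, 54 and 372 UMIs per control cell and 0, 2.5 and 67 per glioma cell (-1.90, -2.12 and -1.79). Hsph1, another chaperone, was the higher member in the smaller sets, at 0.35, 1.13 and 1.10. The summed list had 35.6, 293 and 770 UMIs per 10000 UMIs in control cells and 39.7, 129 and 573 in glioma cells, and medians of 239 and 122 in the narrow set. It moved alike in the other barcodes, at 34417 and 16849 CPM, against 32437 and 15086 CPM in B cells, and the part of sample handling was not tested.

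The Nr4a family, nuclear receptors induced by receptor signalling, belongs to the same kind of gene. Nr4a1 was found in 65 of 96 and 11 of 36 cells, at log2 -2.00 (-2.62 to -1.47) over every cell and -0.49 (-1.41 to 0.38) in the narrow set. Nr4a2 had 69 UMIs in 18 control cells and 5 UMIs in 2 glioma cells, and 1 and 0 UMIs in the narrow set. Nr4a3 had 80 and 24 UMIs (0.45, -0.29 to 1.11), and 1 and 0 in the narrow set.

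Of activation genes 3 of 24 were at least 2-fold higher (12.5%, against 7% of all genes) and 11 lower (45.8%, against 19.5%), with a median of -0.59. Of 12 in the limited set 2 were higher and 5 lower (41.7%, against 15%). Cd83, a marker of activated B cells that microglia also express, was at -1.87 over every cell and -0.41 (-1.02 to 0.17) in the limited set, with 1474 and 148 CPM in the other barcodes. Cd69, an early activation marker, was at -0.28 and -0.83, and Cd86, the costimulatory ligand, at -0.02 and 1.12 in the same sets. Ccl3 and Ccl4, chemokines made in quantity by control microglia, had 1144 against 5 and 1808 against 19 UMIs over every cell, and 24 against 1 and 47 against 9 in the limited set. The other barcodes had 2665 and 130 CPM of Ccl4. Il10, the cytokine of regulatory B cells, had 1 UMI in each library. Lgals3, a lectin abundant in tumour macrophages, was at 1.81 and 2.48 with 90.5% of the limited-set glioma counts from 1 cell.

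Transcripts of dividing cells were scarce. Mki67, a marker of dividing cells, had 8 UMIs in 3 control cells and 2 UMIs in 2 glioma cells, and Top2a had 24 UMIs in 7 control cells and 0 in glioma. None of 10 tested proliferation genes was at least 2-fold higher in glioma (against 7% of all genes) and 1 was lower (10%, against 19.5%). Tnfrsf13c, the receptor for the survival cytokine BAFF, was at 83.1 and 73.1 CPM (-0.15, -1.0 to 0.55), and Tnfrsf13b, its relative TACI, at -1.39 (-2.84 to -0.38) over every cell and -1.06 (-3.29 to 0.63) in the narrow set.

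The remaining lists are read against the 7% of all genes that were at least 2-fold higher and the 19.5% that were lower over every cell. B cell transcription factors had 1 of 23 genes at least 2-fold higher and 5 lower (4.35% and 21.7%, median -0.51), immunoglobulin constant regions 3 and 4 of 10, and marginal zone and B-1 genes 1 and 5 of 8 (median -1.51). Among the last, Bhlhe41, a factor of B-1 cells, had 68 and 1 UMIs (-3.34, -9.24 to -1.39), but microglia carry it too, and the other barcodes had 102 and 1.4 CPM. Plasma cell genes had 2 and 3 of 10, germinal centre genes 0 and 0 of 5, regulatory mediators 3 and 1 of 8, trafficking receptors 2 and 2 of 17, and survival genes 2 and 1 of 13. Cytokine and TNF family receptors had 1 higher and 8 lower of 18 (-0.50), with 0 and 0 of 4 in the narrow set. Tgfbr1, a TGF-beta receptor abundant in microglia, was the furthest of these at -2.70 that had counts in both sums, and was at -0.52 (-2.47 to 1.05) in the limited set. Cytokines made by B cells had 0 higher and 4 lower of 8, and Toll-like receptor genes 1 and 4 of 10. Glycolysis and hypoxia genes had 0 higher and 3 lower of 15, at a median of 0.54, with 0 and 0 of 6 in the narrow set. Mif, a cytokine of the same list, was at 0.92 over every cell and -0.10 (-1.20 to 0.97) in the narrow set. Cholesterol synthesis genes had 3 higher and 2 lower of 10, and none reached the minimum in the smaller sets.

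Outside the lists, the transcripts furthest apart were those known to overlap ribosomal RNA sequence. Gm42418 was at 1145 CPM in the control and 97887 CPM in the glioma B cells (log2 6.42), and at 957 and 64550 CPM in the other barcodes. With Lars2 and AY036118 it took 0.122% of control and 10.1% of glioma B cell UMIs, which lowers every other glioma CPM by 0.15 on the log2 scale. Without these 3 genes in the total, 614 genes were at least 2-fold higher and 1024 lower, in place of 459 and 1279. Other genes were Ifi205, an interferon-inducible gene (1 and 26 UMIs), Ifi214 of the same family (7 and 18, with 1 and 18 in the limited set), and Dnase1l3, a secreted nuclease (6 and 55, of which 47% came from 1 cell). Pim3, a kinase, had 66 UMIs in control and 0 in glioma. Of the 150 genes at least 2-fold higher in the limited set, 66 were so over every cell, and of the 340 lower genes 170 were.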

How the data were processed

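Single-cell 3′ RNA-seq was deposited by the authors as 2 matrices of whole-number UMI counts per gene and barcode, 1 pooled over 4 labelled control samples (124023146 UMIs) and 1 over 4 labelled glioma samples (159689787 UMIs), each with 31053 genes and 6794880 barcodes. The kit was Chromium Single Cell 3′ v2 or v3, per the labels' protocols. Cell Ranger 3.0.2, STAR, Seurat 3 and the builds mm10 and GRCh38 are named in the submitters' processing notes; which step used which, and why the human build is named, is not given in the sources used here. The matrices were not limited to barcodes of cells.

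The counts were read with Python 3.11.15, numpy 2.4.6, scipy 1.17.1 and pandas 2.3.3, and plotted with matplotlib 3.10.9. Counts of the B cells of a library were summed, divided by the summed total (CPM), and compared as log2 ratios, glioma over control, with 0.5 UMI added to each sum. A gene was compared where both sums together held at least 20 UMIs, and a ratio past 2-fold was counted without a test, since each group is 1 library. Intervals are exact: Clopper-Pearson for shares, conditional binomial for ratios. The ratio calculation was tested on simulated data. A floor of 3 UMIs served for genes at 0 in 1 sum. Shares of cells with a UMI were also computed on cells thinned to 1000 UMIs, which no B cell was below. Free RNA was taken from barcodes of at most 100 UMIs. In place of a doublet caller, cells with over 1% of UMIs from 25 microglia and macrophage markers were left out as an alternative.

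The members, 26 gene lists and 16 marker lists were chosen with earlier results of these data known. Named genes were the rule genes, Ebf1, up to 4 largest ratios per list and direction, and 12 per direction outside the lists whose interval lay past 2-fold, that were detected in at least 10% of cells and at least as high as in other barcodes; other list members named, and single cells described, were picked after their values were seen. Promoters and their coordinates are from RefSeq with GRCm38.p6. Some genes of the lists are not reported here by name.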

Additional observations from a re-analysis of the deposited data

How the results depend on the processing

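No paired analysis was possible because barcodes carry no sample name and each group is 1 pooled library; for the same reason no replicate could be left out. The alternatives changed the cells kept, the gene minimum, the scaling or the background. Cells with plasmacytoid dendritic cell RNA were those with at least 2 UMIs over Siglech, Ccr9, Klk1 and Cox6a2. Siglech is also on the microglia list. Genes at least 2-fold higher and lower, 459 and 1279 over every cell, were 127 and 381 with the rule applied to thinned cells, 200 and 458 without cells with plasmacytoid dendritic cell RNA, 150 and 340 without cells over 1%, 82 and 238 in the narrow set, 175 and 646 at a minimum of 50 UMIs, and 1753 and 2600 at a minimum of 1. B cell shares in the same order of cell sets were 0.244%, 0.296%, 0.259% and 0.193% in control, and 0.154% in glioma with the thinned rule. Unthinned shares of cells were 96.9% and 97.2% for Ighm, 62.5% and 75% for Ighd, and 94.8% and 94.4% for Igkc. At 1 UMI, 11 and 5 cells had a leading Igkv and 6 control cells an Ighv. Median log2 ratios that moved were, with the thinned rule, MHC class II -0.080, class I 0.14 and immediate early genes -0.77. Without plasmacytoid dendritic cell RNA they were early development -1.34 and type I interferon 0.19, and without cells over 1% mature follicular genes -0.48, class I 0.28, type I 0.10 and interferon gamma 1.89. Early development was -0.94 at 50 UMIs and -1.11 at 1 UMI. With free RNA subtracted, early development was -3.34, class II -0.021, type I 0.20 and interferon gamma 7.53. In the narrow set class II was -0.25 and class I 0.066. Sign changed for Igkc (-1.66 at 6 rule UMIs, -0.81 with the thinned rule, -0.026 without cells over 1%, -0.62 without Jchain-rich cells, -1.07 in the narrow set). With the thinned rule it changed for Id3 (0.11), Mzb1 (-0.082), Klf2 (0.13), H2-Ab1 (-0.21) and Lgals3 (-0.014). It also changed for Ly6a (-0.45) without cells over 1%, Cd274 (-0.27) with free RNA subtracted, and H2-Ab1 (-0.27) and Psmb8 (-0.35) in the narrow set. The cause was not tested. Scaling by median ratios gave 338 and 1467 genes.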
